A study of Oryza sativa with 12 samples.

Results

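Metal ion transporters of rice seedlings were examined in wild type and pkg plants, with and without the cyclic GMP analogue Br-cGMP. Members were all rows whose gene name in the files begins with ZIP, IRT, NRAMP, YSL, HMA or MTP followed by a digit, which gave 34 genes among 112071 listed features. They comprise 7 ZIP, 2 IRT, 6 NRAMP, 10 YSL, 4 HMA and 5 MTP genes. Only 2079 of the 37830 reference genes carry a symbol in the files. Genes of these families listed without one are not among the members, so the counts are not those of whole families. Of these, 19 reached 1 FPKM (fragments per kilobase of feature, scaled to the size of the library) in at least 3 of the 12 libraries and were tested, 5 were listed above 0 but stayed under that level, and 10 were listed at 0 in every library.

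Rice takes up iron, zinc, manganese and copper through transporters of the root surface, and moves them to the shoot through xylem, phloem and nodes. IRT, ZIP and NRAMP proteins bring divalent metals into the cytosol. YSL proteins carry metals bound to nicotianamine or to phytosiderophores, the small chelators that grasses make. HMA proteins are P-type ATPases that pump metals out of the cytosol or into the vacuole, and MTP proteins are cation diffusion facilitators that remove zinc or manganese from it.

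RNA was sequenced from 14-day-old seedlings of cultivar ZH11, grown on MS medium. The plants were Wild-type or labelled PKG-/-, a homozygous change of a cGMP-dependent protein kinase gene, and were either controls or spent 5 h with Br-cGMP at 10 μM. Each of the 4 groups held 3 libraries, described as biological repetitions. The p-values below judge differences against the spread between libraries of a group, pooled over the 4 groups and moderated over all features tested. Which stretch of PKG is altered, how many mutant lines were used and how many seedlings were pooled are not given in the labels. OS02G0281000, the identifier taken for PKG, has no symbol in the files. Its range in FPKM was 5.94 to 7.09 in untreated wild type, 7.20 to 9.29 in untreated pkg, 4.65 to 6.56 in treated wild type and 3.68 to 9.03 in treated pkg, so its level does not check the genotype labels.

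Between 6667261 and 9438909 reads were assigned to features in each library. In 3 libraries several root genes were nearly missing, namely wild type control 3, pkg control 3 and pkg Br-cGMP 3. The 6 root markers found in the files summed to 84.8 to 116 FPKM there, to 248 FPKM in pkg Br-cGMP 1 and to 905 to 3576 FPKM in the other libraries. Of the defining root genes, LSI2, a silicon exporter of roots, was at 0 to 0.196 FPKM in these 3 libraries and PIP2-3, a root aquaporin, was listed at 0 in all of them. The silicon channel NIP2-1 (6.91 to 15.3 FPKM) and OS02G0662000 (0 to 0.653 FPKM) complete the 4 root genes that define these libraries and the covariate used below. The other two markers were not low there: NIP2-2 was at 44.7 to 55.6 FPKM in the 3 libraries and 22.9 to 92.4 elsewhere, and PHT1-8, a phosphate transporter, at 16.5 to 56.9 and 17.4 to 60.9 FPKM. Wild type Br-cGMP held none of these libraries, so results that turn on them are also given without them. The 10 leaf markers summed to 2459 to 9928 FPKM over all libraries, but only 4 of them were tested, PSAH, RBCS, RBCS-A and PSBW. CAB1R, CAB2R, PSBE, PSBK and PSBL were listed at 0 throughout, and PSBF held 1 read in all. In such bulk samples, fewer cells of a type and less RNA per cell cannot be told apart.

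Every HMA and MTP gene named in the files was detected well enough to be tested, whereas most named YSL and several ZIP and NRAMP genes were not. All 4 HMA genes, both IRT genes and all 5 MTP genes passed the filter, against 3 of 7 ZIP, 3 of 6 NRAMP and 2 of 10 YSL genes. The tested share of members, 55.9%, lay near the 54.8% found over the 2079 reference genes with a symbol and above the 36.4% over all 37830 reference genes. Only 12 members had a mean of 5 FPKM or more over the 12 libraries. The tested members ZIP3, IRT1, IRT2, NRAMP1, NRAMP4 and YSL8 had means of 0.746 to 1.21 FPKM, close to the filter, so they passed through the libraries in which they were higher.

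**Figure D1:**
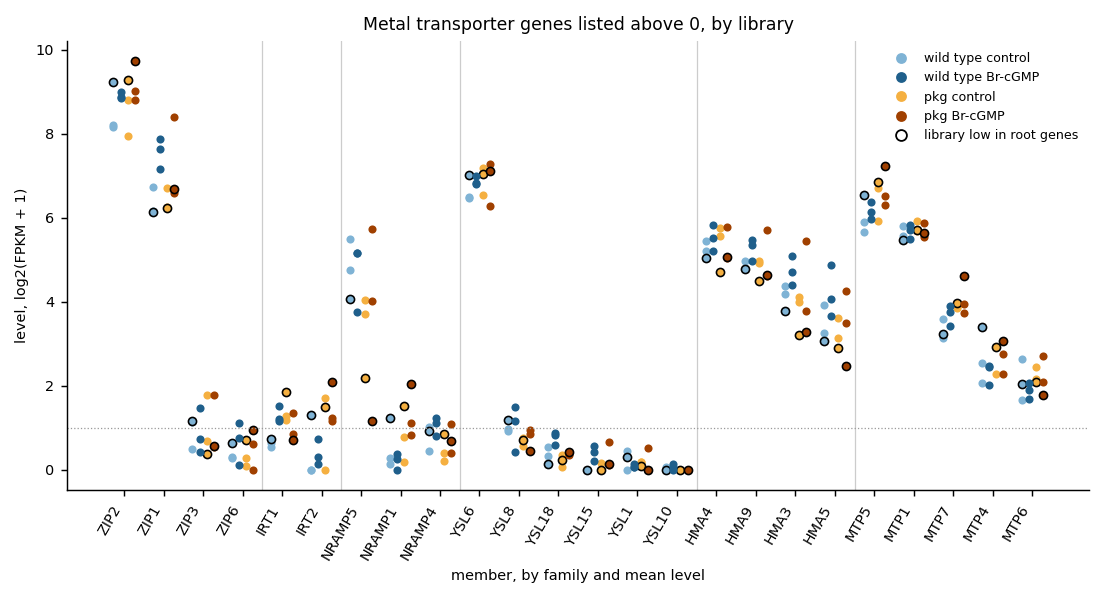
Levels of the 24 members listed above 0, as log2(FPKM + 1) on the vertical axis, with 1 point per library, colours for the 4 groups and black rings for the 3 libraries low in root genes. The dotted line marks 1 FPKM, and ZIP2, ZIP1, YSL6 and MTP5 stand highest.

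The highest member was ZIP2 (OS03G0411800, chromosome 3, 17008027 to 17011263), with a mean of 480 FPKM. Its levels were 296, 286 and 600.1 FPKM in wild type control, 247, 449 and 627 in pkg control, 459, 508 and 470.4 in wild type Br-cGMP and 448, 523 and 849 in pkg Br-cGMP. The highest library of each of 3 groups was the one low in root genes, and the groups overlapped in every comparison of single groups.

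ZIP1 (OS01G0972200, chromosome 1, 42905570 to 42907462), a zinc transporter, came next with a mean of 134 FPKM. It was at 71.1, 105 and 69.0 FPKM in wild type control, 75.5, 105 and 75.0 in pkg control, 143, 199.9 and 234 in wild type Br-cGMP and 95.1, 339 and 102 in pkg Br-cGMP. All 3 wild type Br-cGMP libraries lay above all wild type controls, while in pkg the high mean came from 1 library, pkg Br-cGMP 2. The remaining ZIP genes were low. ZIP3, which unloads zinc from the xylem at rice nodes, was at 0.305 to 2.45 FPKM, and ZIP6 was at 0 to 1.18 FPKM with 62 reads in all. ZIP4, ZIP5 and ZIP7, which distribute zinc within the plant, were listed at 0 in every library.

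IRT1 and IRT2, the ferrous iron uptake transporters of rice roots, were near the limit of detection. They are neighbours on chromosome 3, with 8.6 kb between them. IRT1 (OS03G0667500, chromosome 3, 26286254 to 26292018) was at 0.456, 0.573 and 0.678 FPKM in wild type control, 1.29, 1.45 and 2.64 in pkg control, 1.33, 1.88 and 1.23 in wild type Br-cGMP and 0.822, 1.55 and 0.627 in pkg Br-cGMP. These values rest on 6 to 24 reads per library, and wild type control was the lowest group, overlapping only pkg Br-cGMP. An added feature of the opposite strand, at 1.42 to 2.62 FPKM, covers 16.0% of IRT1, and the sources used here do not say whether the counting used strand.

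IRT2 (OS03G0667300) was listed at 0, 0 and 1.47 FPKM in wild type control, 2.30, 0 and 1.80 in pkg control, 0.240, 0.677 and 0.111 in wild type Br-cGMP and 1.35, 1.23 and 3.28 in pkg Br-cGMP. It had at most 29 reads in a library. Wild type Br-cGMP held the lowest values of the 2 groups given the nucleotide, with no overlap between them.

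Of the NRAMP genes as listed, only NRAMP5, the manganese and cadmium uptake transporter of rice roots, had a mean of 5 FPKM or more. Added features that cover NRAMP3 and NRAMP4 also held reads, as given below, so low values of these 2 genes do not show that their loci were silent. NRAMP5 (OS07G0257200, chromosome 7, 8871643 to 8878905) was at 26.2, 44.2 and 15.7 FPKM in wild type control, 15.6, 12.0 and 3.54 in pkg control, 12.5, 34.8 and 34.8 in wild type Br-cGMP and 15.3, 52.3 and 1.25 in pkg Br-cGMP. The highest library exceeded the lowest 41.7-fold, on 20 to 917 reads per library, and the lowest stood at 8.02% of the median. The lowest values came from pkg control 3 and pkg Br-cGMP 3, both low in root genes, but wild type control 3 was not as low.

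NRAMP1 (OS07G0258400, chromosome 7, 8966025 to 8970856), described as an iron and cadmium transporter, lies 87.1 kb from NRAMP5 and showed another order of libraries. It was at 0.103, 0.221 and 1.37 FPKM in wild type control, 0.716, 0.147 and 1.85 in pkg control, 0.193, 0 and 0.297 in wild type Br-cGMP and 1.16, 0.769 and 3.14 in pkg Br-cGMP, on at most 52 reads. Its 3 highest values were those of the 3 libraries low in root genes. NRAMP4 was at 0.151 to 1.35 FPKM. NRAMP2, NRAMP3, a manganese transporter of nodes, and NRAMP6 were listed at 0 throughout.

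Among the YSL genes, YSL6, linked to manganese tolerance in rice leaves, was the only one above 5 FPKM. YSL6 (OS04G0390500, chromosome 4, 19220804 to 19225330) was at 89.2, 87.5 and 129 FPKM in wild type control, 92.7, 146 and 130.4 in pkg control, 127, 111 and 112 in wild type Br-cGMP and 77.4, 155 and 137 in pkg Br-cGMP. The 4 groups overlapped. YSL8 (OS02G0116400) was at 0.952, 0.897 and 1.26 FPKM in wild type control, 0.475, 0.683 and 0.631 in pkg control, 0.347, 1.26 and 1.84 in wild type Br-cGMP and 0.943, 0.807 and 0.374 in pkg Br-cGMP, so untreated pkg lay below untreated wild type.

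YSL15, which takes up iron bound to deoxymugineic acid, had 40 reads over all libraries and reached 0.592 FPKM. YSL18, a carrier of the same complex, had 91 reads and reached 0.854 FPKM. YSL1 had 32 reads and YSL10 had 4. YSL2, a phloem carrier of iron and manganese nicotianamine, YSL16, a copper nicotianamine carrier, YSL4 and YSL11 were listed at 0 throughout.

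The 4 HMA genes were all expressed above 4 FPKM in every library. HMA4 (OS02G0196600), which moves copper into root vacuoles, was at 42.5, 35.9 and 32.3 FPKM in wild type control, 52.8, 46.5 and 25.2 in pkg control, 45.1, 55.6 and 36.3 in wild type Br-cGMP and 32.0, 53.9 and 32.4 in pkg Br-cGMP. HMA9 (OS06G0665800), a metal exporter, was at 30.6, 27.2 and 26.6 FPKM in wild type control, 29.5, 30.2 and 21.6 in pkg control, 30.7, 43.6 and 40.1 in wild type Br-cGMP and 23.4, 51.1 and 23.8 in pkg Br-cGMP. HMA5 (OS04G0556000, chromosome 4, 27829841 to 27835533), which loads copper into the xylem, was at 14.3, 8.62 and 7.43 FPKM in wild type control, 7.85, 11.2 and 6.53 in pkg control, 11.6, 28.6 and 15.8 in wild type Br-cGMP and 10.2, 18.0 and 4.58 in pkg Br-cGMP. In all of these genes pkg Br-cGMP 2 stood well above the other pkg Br-cGMP libraries. HMA3 (OS07G0232900), which stores cadmium in root vacuoles and is given here because of its values, had the same high library, at 42.6 FPKM against 12.7 and 8.76 in the other pkg Br-cGMP libraries.

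MTP5 (OS01G0837800) was the highest MTP gene, at 59.0, 49.9 and 92.6 FPKM in wild type control, 60.0, 105 and 115 in pkg control, 82.2, 70.0 and 61.5 in wild type Br-cGMP and 77.9, 91.2 and 150.0 in pkg Br-cGMP. MTP1 (OS05G0128400), a vacuolar zinc transporter, lay between 43.7 and 59.4 FPKM in all 12 libraries. Its highest library exceeded the lowest 1.36-fold, the smallest such ratio among the 17 tested members above 0 in every library. MTP7 (OS01G0130000, chromosome 1, 1673503 to 1677066) was at 11.1, 7.78 and 8.40 FPKM in wild type control, 13.5, 13.8 and 14.8 in pkg control, 14.0, 12.5 and 9.69 in wild type Br-cGMP and 12.4, 14.4 and 23.5 in pkg Br-cGMP. MTP4 and MTP6 had means of 5.32 and 3.43 FPKM.

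Differences between groups were tested with limma on log2(FPKM + 1) over 25238 features, and are given on that scale with their standard error and a Benjamini-Hochberg adjusted p. A called feature is one with an adjusted p under 0.05. No member was called in any of the 7 comparisons. The comparisons share groups, so they are set side by side and not counted as separate evidence.

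**Figure D2:**
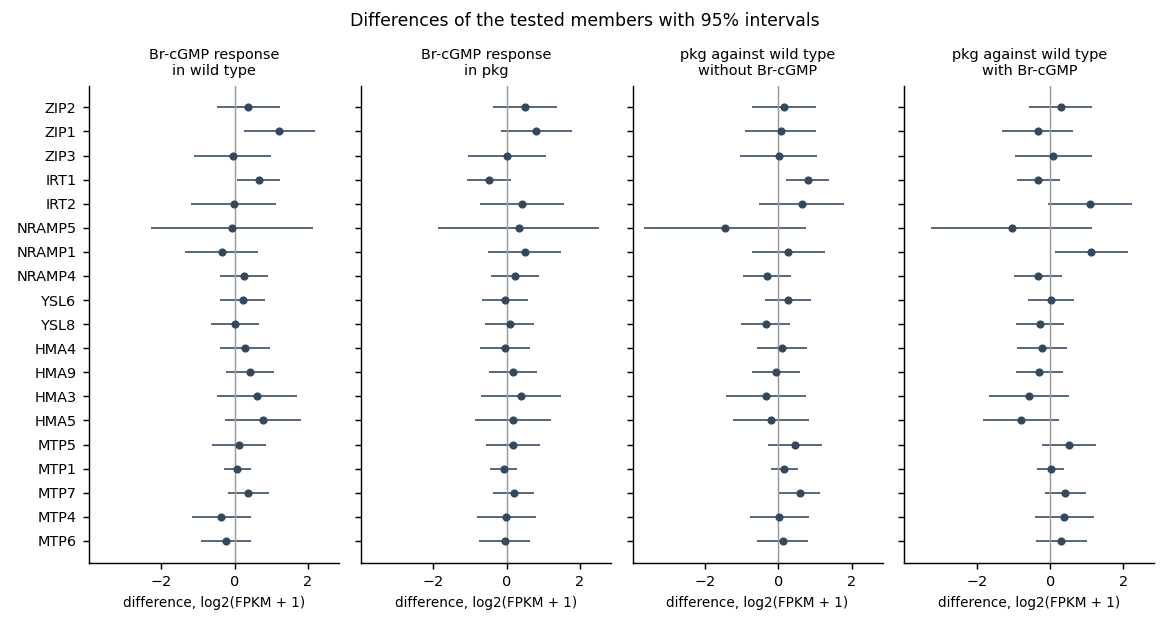
Differences of the 19 tested members in 4 comparisons on the log2(FPKM + 1) scale, with points for the estimate and bars for the unadjusted 95% interval from limma. Most intervals include 0, and NRAMP5 has the widest.

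After Br-cGMP in wild type, ZIP1 and IRT1 stood higher and the HMA genes lay to the same side, but no difference passed the adjusted threshold. ZIP1 was at 81.8 ± 20.3 FPKM (SD, n = 3) in control and 192 ± 45.8 with the nucleotide, a difference of 1.22 ± 0.44 (limma adjusted p = 0.882; unadjusted 95% interval 0.25 to 2.19). IRT1 went from 0.569 ± 0.111 to 1.48 ± 0.348 FPKM, a difference of 0.65 ± 0.27 (limma adjusted p = 0.882). Over all features 0.0% were called in this comparison. An unadjusted p under 0.05 was found for 2 of 19 members, ZIP1 and IRT1, and for 5.33% of all features. The groups did not overlap for 4 of 19 members, ZIP1, IRT1, HMA9 and HMA3, all higher with Br-cGMP, where 8.88% of all features lay higher without overlap and 4.86% lower. Of the 2 groups compared, IRT1 reached 1 FPKM in the treated one alone, so its separation is not independent of the filter. Members above control numbered 13 of 19, with a median of 0.22 against -0.01 over all features.

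All 4 HMA genes were above control, from 0.29 to 0.78 with a median of 0.51, and HMA5 had the largest difference of them, 0.78 ± 0.47 (limma adjusted p = 0.882). The 6 root markers were also all above control, with a median of 2.10, and 1 of the 3 controls but no treated library was among those low in root genes. Without the 3 libraries low in root genes the HMA median was 0.41, and with the mean level of 4 root genes as a covariate it was 0.14, with all 4 above control in both fits. ZIP1 differed by 1.11 ± 0.52 without these libraries (limma adjusted p = 0.957) and by 0.90 ± 0.39 with the covariate (limma adjusted p = 0.874). HMA5 differed by 0.61 ± 0.44 and 0.38 ± 0.38 in the same fits.

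In pkg, Br-cGMP separated the groups for no member. ZIP1 was at 85.0 ± 16.9 FPKM in pkg control and 179 ± 139 with Br-cGMP, a difference of 0.82 ± 0.44 (limma adjusted p = 1.0). IRT1 lay lower by value, at -0.48 ± 0.27, and ZIP2 higher, at 0.51 ± 0.39, both with an adjusted p of 1.0 in limma. Over the alternative fits these differences ran from -0.81 to -0.14 for IRT1, the last without the 3 low libraries, and from 0.14 without pkg control 1 to 0.81 without pkg control 3 for ZIP2. Without overlap, 2.71% of all features lay higher and 2.41% lower, and 0.0% were called. No member had an unadjusted p under 0.05, against 2.71% of all features. Members above pkg control numbered 13 of 19, with a median of 0.18. Without pkg Br-cGMP 2 the difference of ZIP1 was 0.22. Control and treated pkg libraries of the same number deviated together over all features, a pairing seen in the data and not given by the labels. With the replicate number as a block the differences were 0.82 ± 0.34 for ZIP1 and 0.51 ± 0.27 for ZIP2, both again with an adjusted p of 1.0 in limma. That block was shared by all 12 libraries and so also joined wild type and pkg libraries of the same number. It does not model the pairing within pkg alone. Pkg Br-cGMP 2 also had the highest root marker sum of the 12, 3576 FPKM, and with the root gene covariate the difference of ZIP1 was 0.82 ± 0.37 (limma adjusted p = 1.0).

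**Figure D3:**
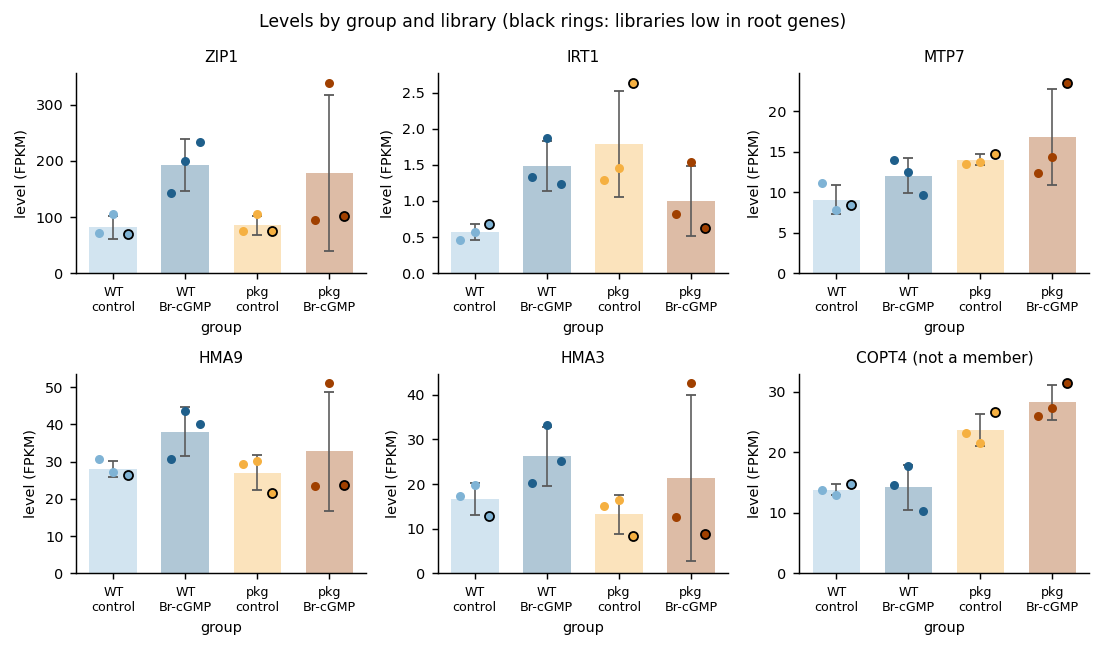
Levels in FPKM of ZIP1, IRT1, MTP7, HMA9, HMA3 and COPT4 by group, with bars for the mean, error bars for the SD (n = 3), points for libraries and black rings for libraries low in root genes. COPT4 alone has all pkg libraries above all wild type libraries, and pkg Br-cGMP 2 is far above its group for ZIP1, HMA9 and HMA3.

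Averaged over both genotypes, ZIP1 was higher with Br-cGMP by 1.02 ± 0.31 (unadjusted p = 0.00772, limma adjusted p = 0.668), the smallest p of any member in any comparison. Of the 6 treated libraries 4 were above all 6 controls, and the other two, pkg Br-cGMP 1 and 3, were within their range. None of 19 members separated treated from control libraries without overlap, against 0.19% of all features higher and 0.0515% lower, and 0.0% of features were called. ZIP1 was the 1 member with an unadjusted p under 0.05, against 5.76% of all features. Members above control numbered 15 of 19, with a median of 0.13, where 46.3% of all features were above. ZIP2 and MTP7 followed by p, at 0.44 ± 0.28 and 0.28 ± 0.18.

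Without Br-cGMP, IRT1 and MTP7 stood higher and NRAMP5 lower in pkg, each with no overlap between the 3 libraries of each group. IRT1 was at 1.79 ± 0.736 FPKM in pkg control against 0.569 ± 0.111 in wild type control, a difference of 0.80 ± 0.27 (limma adjusted p = 0.679). MTP7 was at 14.0 ± 0.652 against 9.09 ± 1.76 FPKM, a difference of 0.59 ± 0.25 (limma adjusted p = 0.929). NRAMP5 was at 10.4 ± 6.20 against 28.7 ± 14.4 FPKM, a difference of -1.46 ± 0.99 (limma adjusted p = 0.947; unadjusted 95% interval -3.67 to 0.74). YSL8 was also lower without overlap, at -0.35 ± 0.30 (limma adjusted p = 0.947). It reached 1 FPKM in wild type libraries alone and passed the filter through them. IRT1 reached 1 FPKM in pkg control, wild type Br-cGMP and pkg Br-cGMP 2, but in no wild type control. For both genes the separation is therefore not independent of the filter.

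With IRT1 and YSL8 counted, 2 of 19 members lay higher and 2 lower without overlap, against 5.27% and 5.44% of all features. Over all features 0.341%, or 86, were called. IRT1 and MTP7, 2 of 19 members, had an unadjusted p under 0.05, against 5.22% of all features. Each of these groups held 1 library low in root genes. Without the 3 libraries, NRAMP5 differed by -1.25 ± 0.68 (limma adjusted p = 0.966), IRT1 by 0.65 ± 0.31 and MTP7 by 0.51 ± 0.29, all not called. With the root gene covariate NRAMP5 differed by -1.44 ± 0.54 (limma adjusted p = 0.715).

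With Br-cGMP, NRAMP1 and IRT2 were higher in pkg without overlap, and no member was lower without overlap. NRAMP1 differed by 1.12 ± 0.45 (limma adjusted p = 0.475; unadjusted 95% interval 0.13 to 2.11) and IRT2 by 1.09 ± 0.52 (limma adjusted p = 0.548). For comparison, 6.65% of all features were higher and 6.65% lower without overlap, and 0.341% were called. NRAMP1 was the 1 member with an unadjusted p under 0.05, against 9.47% of all features. Of these 6 libraries only pkg Br-cGMP 3 was among the 3 low in root genes, and it held the highest level of both genes. Pkg Br-cGMP 1 also had a root marker sum of only 248 FPKM, against 1746 to 2355 in treated wild type. Leaving out the 3 libraries therefore does not match these groups in root genes. Among these 6 libraries both genes reached 1 FPKM in pkg alone. Without the 3 low libraries the differences were 0.76 ± 0.34 for NRAMP1 (limma adjusted p = 0.887) and 0.79 ± 0.51 for IRT2 (limma adjusted p = 0.919), and with the covariate 0.64 ± 0.29 and 0.70 ± 0.47. By limma-voom they were 3.44 and 2.43, so the size of these differences, at few reads, depended on the scale, and none was called.

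All 4 HMA genes lay below wild type in this comparison, with a median of -0.43, and HMA5 differed most, from 18.7 ± 8.85 to 10.9 ± 6.76 FPKM, by -0.80 ± 0.47 (limma adjusted p = 0.633). Of the 6 root markers 5 also lay below wild type, with a median of -2.08. Without the 3 low libraries the HMA median was -0.12, with 4 of 4 below, and with the covariate -0.05, with 3 of 4 below. NRAMP5 changed side: its difference of -1.05 ± 0.99 became 0.18 ± 0.62 without these libraries and 0.03 ± 0.59 with the covariate, and none of these values was called.

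The 5 MTP genes were all above wild type in pkg both without Br-cGMP, at a median of 0.16, and with it, at a median of 0.39. Both counts were also 5 of 5 under another scaling, by limma-voom, without the 3 low libraries and with the covariate. The size and order of the medians did depend on the fit: without the 3 low libraries they were 0.29 without and 0.21 with the nucleotide, and with the covariate 0.16 and 0.22. None of the 5 genes was called. Their differences ran from 0.03 to the 0.59 ± 0.25 of MTP7 without Br-cGMP, where MTP1 differed by 0.16 ± 0.17. With Br-cGMP they ran from 0.02 to 0.52, so some of the 5 lay close to wild type. The mean of MTP4 without Br-cGMP was 5.67 FPKM in pkg and 5.90 in wild type, the reverse order. Over all features 49.0% were above wild type without the nucleotide and 48.0% with it.

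Averaged over treatments, MTP7 was higher in pkg by 0.50 ± 0.18 (limma adjusted p = 0.297), IRT2 by 0.86 ± 0.37 (limma adjusted p = 0.372) and NRAMP1 by 0.70 ± 0.32 (limma adjusted p = 0.402). None was called and none separated the 6 pkg from the 6 wild type libraries, where 0.769% of features were called, 0.955% lay higher without overlap and 0.792% lower. MTP7 and IRT2, 2 of 19 members, had an unadjusted p under 0.05, against 12.6% of all features. Without the 3 low libraries these differences were 0.33 ± 0.19, 0.83 ± 0.38 and 0.52 ± 0.25. Among wild type libraries, IRT2 and NRAMP1 reached 1 FPKM in wild type control 3 alone, and both passed the filter mainly through pkg libraries. Their higher level in pkg is therefore not independent of the filter.

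The response to Br-cGMP was compared between genotypes by the interaction term. IRT1 had the smallest p, with a response lower in pkg by 1.13 ± 0.38 (difference of responses -1.13, unadjusted p = 0.0124, limma adjusted p = 1.0). It was higher with Br-cGMP in wild type and lower in pkg by value, and without the 3 low libraries the term was -0.84 ± 0.42. For ZIP1 the term was -0.41 ± 0.62 with an unadjusted 95% interval of -1.78 to 0.97, so neither an equal response nor one smaller by 1 log2 unit in pkg lies outside it. The share of features called was 0.00396%, which is 1 feature, and IRT1 was the 1 member with an unadjusted p under 0.05, against 2.07% of all features. IRT1 reached 1 FPKM in no wild type control, so its interaction term is not independent of the filter.

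Several members differed between libraries of the same group. HMA5 was the only tested member whose 3 values in the libraries low in root genes, 4.58 to 7.43 FPKM, all lay below the other 9, at 7.85 to 28.6, a pattern shown by 4.74% of features. ZIP2, NRAMP1 and MTP4 had the opposite order, which 1.56% of features showed. ZIP2 was at 600.1 to 849 FPKM in these 3 libraries and at 247 to 523 in the others. NRAMP1 was at 1.37 to 3.14 against 0 to 1.16 FPKM, and MTP4, given here because of its values, at 6.61 to 9.64 against 3.05 to 6.56 FPKM. Because NRAMP1 reached 1 FPKM only in these 3 libraries and in pkg Br-cGMP 1, it passed the filter through the libraries in which it was high. Its place beside the 1.56% is therefore not read as a result. These 3 libraries were chosen from root genes and not from the transporters, and no test was made of the sets.

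**Figure D4:**
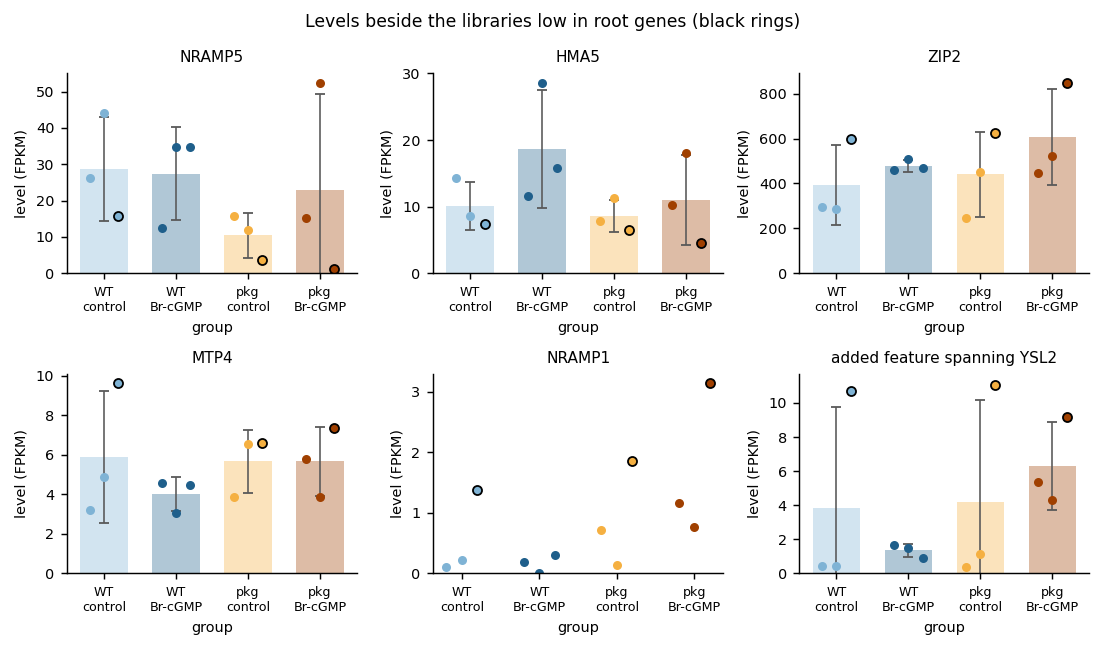
Levels in FPKM of NRAMP5, HMA5, ZIP2, MTP4, NRAMP1 and the added feature spanning YSL2 by group, with points for libraries and black rings for the 3 libraries low in root genes. Bars and error bars give the mean and SD (n = 3), cut at 0, and are left out for NRAMP1, which is listed at 0 in 1 library; the ringed points are the highest of their groups for ZIP2, MTP4, NRAMP1 and the YSL2 feature, and the lowest for NRAMP5 and HMA5.

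A value of 0 for a member did not always mean that its locus had no reads. The files list added features without a reference identifier beside the reference genes, and 9 of the 10 members listed at 0 were covered over at least 50% of their span by such a feature on the same strand, YSL4 being the exception. Among the 24 members above 0 there were 5, MTP7, NRAMP1, NRAMP4, YSL15 and ZIP6. Over all reference genes the shares were 64.1% of 15025 listed at 0 and 24.1% of 22805 above 0. How reads were divided between overlapping features is not given in the sources used here.

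**Figure D5:**
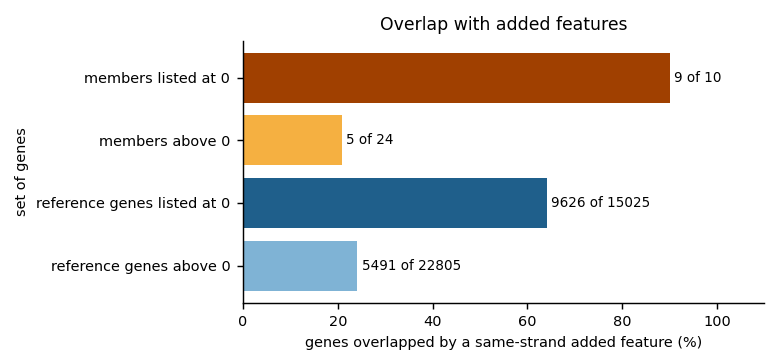
Percent of genes, on the horizontal axis, covered over at least 50% of their span by a same-strand added feature, for members and for all reference genes listed at 0 or above 0. The bar of members at 0 reaches 90.0% and that of members above 0 reaches 20.8%.

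The feature over YSL2 (chromosome 2, 26170512 to 26174918) contains the whole gene and was clearly expressed in some libraries. It was singled out after its values were seen. Its levels were 0.420, 0.417 and 10.7 FPKM in wild type control, 0.386, 1.14 and 11.1 in pkg control, 1.66, 1.48 and 0.935 in wild type Br-cGMP and 5.34, 4.32 and 9.20 in pkg Br-cGMP, on 12 to 260 reads. The libraries low in root genes held the highest value of their groups, and all pkg Br-cGMP libraries lay above all wild type Br-cGMP libraries.

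That difference was 1.58 ± 0.91 (limma adjusted p = 0.627), and 1.31 ± 0.31 without the 3 low libraries (limma adjusted p = 0.378). YSL15, 25.2 kb from YSL2, did not share this pattern of levels: it was listed at 0 in wild type control and reached its highest values in pkg Br-cGMP 2 and wild type Br-cGMP 3.

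Other added features held reads where the named gene held few or none. The feature over NRAMP4 was at 2.51 to 9.67 FPKM, above NRAMP4 itself, and those over NRAMP3 were at 0.813 to 2.10 FPKM and, for one that spans many genes, 1.12 to 2.33 FPKM. A feature that contains MTP7 was at 0.610 to 10.2 FPKM, so the reads of MTP7 may be shared with it. The features over ZIP4, YSL16 and YSL11 stayed under 1 FPKM, and those over ZIP5, ZIP7, NRAMP2 and NRAMP6 were listed at 0 like the genes.

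Genes that work with these transporters were read from the same fits. Nicotianamine synthases, which make the chelator carried by YSL proteins, varied over a wide range between libraries. NAS1 was at 0.392 to 158 FPKM, a 402-fold range against 41.7-fold for NRAMP5, and NAS2 at 0.490 to 188 FPKM, both under 3 FPKM in wild type control 3 and pkg control 3 and at 10.7 FPKM in pkg Br-cGMP 3, while NAS3 lay between 24.8 and 61.8 FPKM. None of the 4 genes matched by name among chelator genes was called in any of the 7 comparisons, and 1 of these genes, TOM20, is a subunit of the mitochondrial import receptor that shares only the letters. IDEF1, an iron regulator, was listed at 0.

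Of 8 listed iron storage and copper transport genes 6 were tested, all copper transporters of the COPT family, and of these 1 rose and 0 fell in the genotype difference averaged over treatments, in which 0.769% of all features were called. None was called in the other 6 comparisons. The other 5 lay below wild type in that comparison, for a median of -0.31 over the 6, and 5 of 6 did so within each treatment. COPT6 differed most among these 5, by -1.27 ± 0.45 (limma adjusted p = 0.29), and stood at 86.3 ± 17.6 FPKM (SD, n = 3) in untreated wild type and 38.2 ± 23.5 in untreated pkg. COPT4 (OS03G0370800, chromosome 3, 14552198 to 14552749) was at 13.7, 12.9 and 14.8 FPKM in wild type control, 23.2, 21.5 and 26.6 in pkg control, 14.5, 17.8 and 10.3 in wild type Br-cGMP and 25.9, 27.4 and 31.4 in pkg Br-cGMP. All 6 pkg libraries were above all 6 wild type libraries, also in the libraries low in root genes.

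COPT4 was higher in pkg by 0.85 ± 0.15 (limma adjusted p = 0.0244). Within treatments it was higher by 0.74 ± 0.21 without Br-cGMP (limma adjusted p = 0.428) and by 0.97 ± 0.21 with it (limma adjusted p = 0.139), neither called. The call ended in 11 of 21 alternative fits, among them that without the 3 low libraries (0.80 ± 0.19, adjusted p = 0.254), while the difference stayed between 0.75 and 0.94.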

How the data were processed

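The tables deposited by the authors hold 1 FPKM value per feature and library, made after read processing with CASAVA 1.8 and HISAT2, per the submitters' processing notes. The unit is not stated and was taken from the values: multiplied by feature length and divided by 1 constant per library, 100% of the values above 0 gave whole reads, to within 0.01. Counting program, genome build and annotation are not given in the sources, and coordinates are those of the files.

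On log2(FPKM + 1), limma 3.58.1 (R 4.3.3) fitted the group means of all 12 libraries, with trended, robust moderation, two-sided tests and Benjamini-Hochberg adjustment. The fit took the 25238 features that reached 1 FPKM in 3 libraries. The pseudocount makes differences of low genes too small. The procedure was run on simulated reads, with changes only in features with a mean of 5 FPKM or more and only the wild type Br-cGMP response read. Noise was drawn separately for each feature. The run therefore does not cover members of lower level or deviations shared by many features of a library. Tables and figures used Python 3.11.15, pandas 2.3.3 and matplotlib 3.10.9.

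Members and lists were chosen with earlier results of these data known. The rule for values by library took in each family the 2 highest members, in each comparison the 3 with the smallest p, and members under 10% of their median in a library, which gave 14 names. Chi-square per degree of freedom between replicates was 21.3 to 77.6, so no library was a repeat sequencing of another of its group. Libraries of different groups were not compared in this way, and the measure does not show whether replicates came from separate plants. In pkg, control and treated libraries of the same number deviated together (r = 0.31 to 0.36 across features, all 3 pairs over 0.1), a pairing seen in the data alone; the other comparisons had no such pattern. HKT2-1, planned as a root marker, was not matched. No sequences are shown, as no table used here holds them.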

Additional observations from a re-analysis of the deposited data

How the results depend on the processing

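No member was called under any of the 22 alternative settings. The 21 named differences of members, in each comparison the 3 with the smallest p, kept their direction in each alternative run for them. These alternatives numbered 16 for a difference between single groups and 21 for an averaged or interaction term. The named differences were picked by p in the same data, so this does not show that other differences of members kept theirs. NRAMP5 between genotypes with Br-cGMP, not among those named, changed side without the 3 libraries low in root genes and with the root gene covariate. For COPT4, the call in the averaged genotype difference ended with a replicate block (adjusted p = 0.0591), without the 3 libraries low in root genes (0.254), and without wild type control 1 (0.0724), 2 (0.0666) or 3 (0.0549), pkg control 1 (0.0514), 2 (0.0562) or 3 (0.0702), wild type Br-cGMP 1 (0.0598), or pkg Br-cGMP 2 (0.0530) or 3 (0.0736); over all alternatives it ranged from 0.0172 to 0.254.

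Counts over all features moved more. In wild type the 0 features called after Br-cGMP became 2 with a pseudocount of 0.1, 5 with no filter and 4 with 1 prior for the spread, and were 0 to 1 with a library left out. In pkg the count of 0 was 0 to 2 with a library left out. In the fit as reported, 1346 and 685 features had an unadjusted p under 0.05; limma-voom on the recovered reads called 0 in both, with 1285 and 663 at that p. For Br-cGMP averaged over genotypes the count of 0 became 1 with the replicate block and was 0 to 1 with a library left out, with 1454 at an unadjusted p under 0.05 as reported and 0 called by limma-voom. The replicate block changed no call of a member. Of the 86 features called between genotypes without Br-cGMP, the count was 38 when the fit held the compared groups alone, 12 when it held reference genes alone, 31 without the 3 low libraries and 50 to 74 with a library left out. With Br-cGMP it went from 86 to 36, 8 and 34 in these fits and was 55 to 200 with a library left out, 200 without pkg Br-cGMP 1. The averaged genotype count of 194 became 57 with reference genes alone, 97 without the 3 low libraries and 129 to 567 with a library left out, 567 without pkg Br-cGMP 1. The single interaction call became 2 with a pseudocount of 0.1 or no filter, 0 by limma-voom, with reference genes alone or without the 3 low libraries, and 1 to 3 with a library left out. The causes were not tested.

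The 6 members near 1 FPKM rest on few reads, so small differences in IRT1, IRT2 or NRAMP1 were not detectable at this depth. The p-values rest on the spread between 3 libraries a group, pooled over the groups and moderated over the features tested. They cover no other variation.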
